A study of Drosophila melanogaster with 12 samples.

Results

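The antenna is the main olfactory organ of Drosophila melanogaster, and it forms during metamorphosis from the antennal part of the eye-antennal imaginal disc. The data compared here span that change in unperturbed animals: 3 adult antenna libraries (replicates 5, 6 and 7) against 3 larval antennal disc libraries (replicates 1, 2 and 5), all from the control strain w1118, labelled wild-type. They are 6 of the 12 samples of the series, and they were chosen by their stage and genotype labels, not by any measured value. Each adult sample held approximately 300 antennae of flies 0 to 4 h old, that is just after eclosion, broken off frozen animals by sieving. Each disc sample held 50 antennal discs of third-instar larvae (instar 3), cut by hand from the eye disc. Males and females were pooled at both stages and animals were grown at 22 °C on a 12 h light and 12 h dark cycle. The other 6 samples are the same stages of amos mutants (amos3, an allele of the proneural gene amos), and they enter only where the stage effect itself is compared between genotypes. mRNA was sequenced in bulk, so each value is an average over neurons, glia, support cells, epidermis and whatever else came with the tissue. The study's methods do not state which antennal segments the adult samples held.

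In the third-instar disc, undifferentiated epithelial cells divide while secreted morphogens and a set of selector transcription factors divide the disc into territories, and proneural genes then pick the precursors of each sensillum. During pupal life each precursor divides to give olfactory sensory neurons and the support cells that enclose them (thecogen, trichogen and tormogen cells). The mature neuron carries its receptors in a sensory cilium within a cuticular hair, the support cells secrete odorant-binding proteins and enzymes into the lymph around it, and the neuron sends an axon to the brain.

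The adult libraries held 25150198 to 25721392 reads counted on genes, and the disc libraries 26796503 to 27661261. Levels are given as CPM, counts scaled to a total of 1000000 reads on genes in each library, with no correction for gene length. Reads on 11304 to 11408 genes were found in each adult library and on 10662 to 10927 genes in each disc library. Reads on the leading 10 genes came to 10.9% to 11.2% in adult antennae and 6.60% to 7.10% in discs. Alignments to more than 1 place, which were not counted on genes, made up 24.5% to 27.1% of all entries of the adult files, and 14.7% to 20.4% of those of the disc files, with the 20.4% in disc replicate 5.

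Libraries were close to one another in adult antennae and less so in discs. Over all genes, the chi-square per degree of freedom between 2 libraries was 6.73 to 10.9 among the adult libraries, 33.7 between disc replicates 1 and 2, and 106 and 143 between disc replicate 5 and each of the others. Disc replicate 5 therefore stood apart, and disc replicate 2 carried transcripts of another tissue described below. Counts with each of them left out are given where they bear on a result.

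Across the transcriptome the stages differed in most genes. Of 15682 genes, 9770 passed the filter on low counts and were tested with edgeR's quasi-likelihood test, and 8458 of them (86.6%) had an adjusted p under 0.05, 4216 higher and 4242 lower in adult antennae. The adult and disc libraries did not overlap in 90.5% of the genes tested. Since a call at that threshold says little about any group of genes, calls over 4-fold are given beside it. These were made for 3977 genes (40.7%), 2538 higher (26% of those tested) and 1439 lower (14.7%) in adult antennae. Changes over 32-fold were called for 1420 genes that rose and 368 that fell, while 3387 genes (34.7%) differed by less than 2-fold. The median log2 fold change, adult over disc, was -0.0033 over all genes tested. Log2 fold changes are given ± their standard error, and adjusted p-values are Benjamini-Hochberg values over all genes tested. In bulk tissue, fewer cells of a type and less RNA per cell cannot be told apart, and this holds for every change that follows.

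The labelled tissues were set against markers that define them. All 9 antenna markers were higher in the adult libraries, each over 4-fold. Orco (FBgn0037324), the co-receptor that every odorant receptor needs, had 3104, 2914 and 2769 CPM in adult antennae, against 1.37, 2.16 and 2.30 CPM in discs. Ir25a (FBgn0031634) and Ir8a, co-receptors of the ionotropic receptors, had means of 251 ± 8.25 CPM in adult antennae and 0.305 ± 0.083 CPM in discs for Ir25a and 135 ± 10.7 CPM in adult antennae and 0.122 ± 0.021 CPM in discs for Ir8a (SD, n = 3 each). No adult library overlapped a disc library for any of the 9, and the same held for 90.5% of all genes tested. The markers of the hearing organ in the second antennal segment, the channel genes nompC and iav, were low even in adults. Means were 4.86 CPM in adult antennae and 0.390 CPM in discs for nompC. For iav they were 1.202 CPM in adult antennae and 0.196 CPM in discs. How much of the second segment the adult samples held was not tested.

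Of 9 disc markers, 7 were lower in adult antennae and 2 were higher. Transcripts of ato, the proneural gene of the auditory and coeloconic lineages, came to 2 reads in the 3 adult libraries together, against 4713 in the 3 disc libraries, a ratio of 2204 in favour of discs (95% exact interval 610 to 18205, counting error only). The hedgehog gene hh, a morphogen of the posterior compartment, had 0.428, 0.117 and 0.239 CPM in adult antennae, against 82.5, 84.4 and 62.8 CPM in discs. Both genes were present in every disc library and were at or near 0 in every adult one. The 2 disc markers that went the other way are selector genes of antennal identity, Dll and ss. Dll (distal-less) had 276, 269 and 276 CPM in adult antennae, against 246, 221 and 256 CPM in discs (log2 fold change 0.45 ± 0.07, adjusted p = 0.00082), and ss (spineless) had 521, 554 and 524 CPM in adult antennae, against 125, 115.0 and 93.0 CPM in discs (log2 fold change 2.53 ± 0.13, adjusted p = 3.5e-06).

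**Figure D1:**
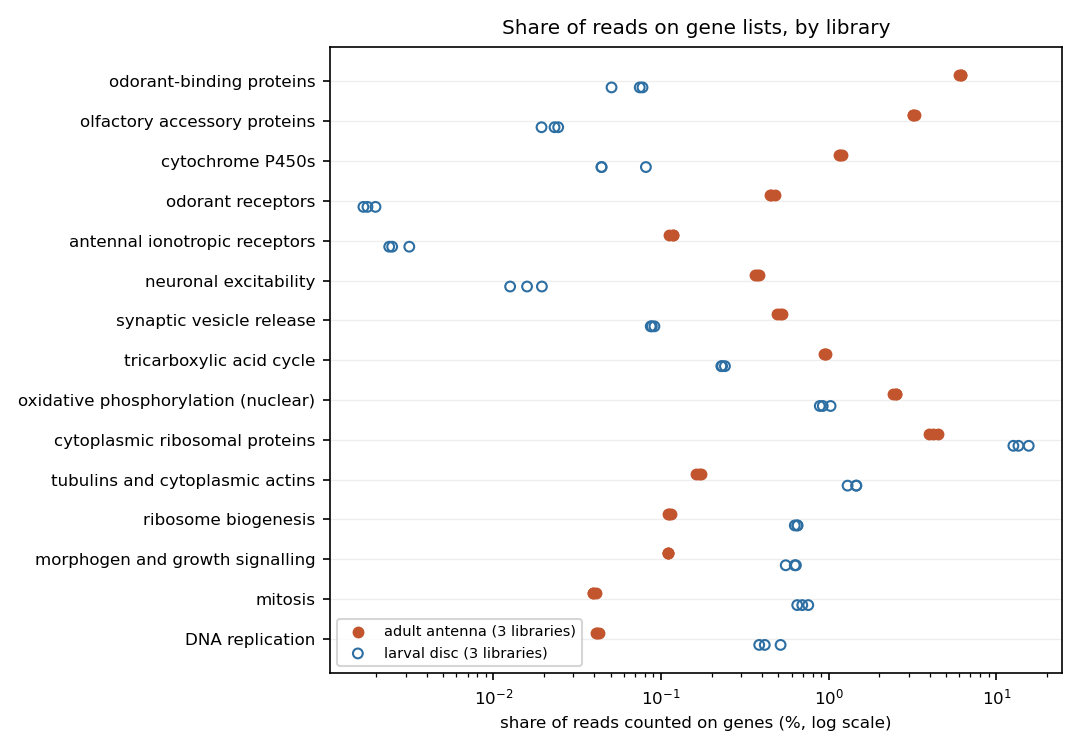
Share of reads counted on genes (%, log scale) that fell on each of 15 gene lists, for the 3 adult antenna libraries (filled points) and the 3 larval disc libraries (open points). Odorant-binding proteins took 6.09% of reads in adult antennae and 0.068% in discs on average, ribosomal proteins 4.20% in adult antennae and 13.9% in discs, and the libraries of the 2 stages do not overlap in any list shown.

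The odorant receptors (Ors), the odor-gated channels of olfactory neurons, that could be tested all rose. Of 60 members in the files, 45 passed the filter, and 45 were higher in adult antennae, all over 4-fold, at a median log2 fold change of 9.63 against the -0.0033 of all genes. A gene that passed the filter only through its adult libraries had to differ, so this count does not describe all 60: of the others, 10 were at or under 3 reads per library at both stages, and 5 held reads but too few to test. In 14 of the 45, no disc library held a read, and with those set at the fold that 3 reads per disc library would allow the median was 8.63. The antennal receptors among them numbered 39, of which 37 were tested, and their mean levels in adult antennae ran from 0.717 to 2929 CPM with a median of 29.7 CPM.

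Or92a, Or42b and Or22a are receptors of large basiconic sensilla, which house neurons tuned to food odors. Or92a had 197, 181 and 206 CPM in adult antennae, against 1.30, 1.57 and 1.64 CPM in discs (log2 fold change 7.28 ± 0.12, adjusted p = 7.8e-08). Or42b had 187, 180 and 201 CPM in adult antennae, against 0.072, 0.037 and 0.183 CPM in discs (log2 fold change 11.11 ± 0.25, adjusted p = 1.9e-07). Or22a reached 44.4, 40.4 and 48.3 CPM in the adult antennae and had no read in any disc, which puts it at least 403-fold higher in adult antennae. Adult and disc libraries did not overlap for any of the 45, nor did they in 90.5% of all genes tested. Only 3 Ors exceeded 1 CPM in discs, Orco, Or92a and Or43b. The disc level of Orco was under 0.1% of its adult level, where abundant adult genes shared a common level described below. Or43b, named here after its values were seen, was the highest at a mean of 96.6 ± 6.60 CPM in adult antennae and 10.2 ± 0.984 CPM in discs. It shares exon positions with Cul1 on the opposite strand, so its reads cannot be assigned with certainty.

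Receptors of other olfactory organs gave lower levels. The 7 Ors known from the maxillary palp were all tested and all higher in adult antennae, with means of 1.50 to 26.0 CPM. Their disc means were at most 0.049 CPM, so all 7 passed the filter only through their adult libraries and had to be higher. Or46a, the highest of them, had 28.2, 29.003 and 20.7 CPM in adult antennae and 2 reads in all in discs. Its exons share sequence positions with those of another gene on the same strand, so its reads cannot be assigned with certainty. Of 13 Ors of the larval olfactory organ, 1 passed the filter. This was Or1a, which averaged 1.44 CPM in adult antennae and 0.024 CPM in discs (2 reads in all in the discs). Or22c, a larval receptor below the filter, had 0.234, 0.156 and 0.199 CPM in adult antennae, against 0.325, 0.373 and 0.365 CPM in discs.

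Ionotropic receptors (Irs), which serve acid and amine detection in coeloconic sensilla and sense humidity and temperature in the arista and sacculus, also rose. All 17 antennal Irs were tested, and 16 were higher and 1 was lower in adult antennae, 15 of the 16 over 4-fold, at a median log2 fold change of 9.23. Ir25a had 253, 258 and 242 CPM in adult antennae, against 0.253, 0.261 and 0.402 CPM in discs (log2 fold change 9.92 ± 0.15, adjusted p = 6.7e-08). Ir75a, a receptor of acids, had 186, 197 and 179 CPM in adult antennae, against 0.217, 0.075 and 0.073 CPM in discs (log2 fold change 10.79 ± 0.24, adjusted p = 1.7e-07). Ir76b, a further co-receptor, had 194, 190 and 175 CPM in adult antennae, against 0.687, 0.933 and 0.475 CPM in discs (log2 fold change 8.32 ± 0.21, adjusted p = 2.6e-07). Adult and disc libraries were far apart in all 3 genes. Ir64a, an acid-sensing receptor of the sacculus, had 105, 105 and 101 CPM in adult antennae and a single read over the 3 discs.

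A pair of Irs ran against the rest. Ir68a, a receptor of moist air, had 2.76, 2.45 and 1.27 CPM in adult antennae, against 4.70, 4.18 and 6.06 CPM in discs (log2 fold change -0.94 ± 0.33, adjusted p = 0.034), so that its adult libraries lay below all the discs. The call was lost (adjusted p between 0.060 and 0.070, log2 fold change between -0.66 and -1.02) without adult replicate 6 or 7, without disc replicate 1 or 5, and with only genes of at least 10 reads in every library tested. Ir85a, whose role is not given here, had 3 reads in all in adult antennae and 89 in discs, and it shares exon positions with Pif1A and Pif1B on the opposite strand. Over all 63 Irs in the files, 23 were tested, 21 of them higher and 2 lower. Only 4 of the 23 had a mean over 1 CPM in discs, and those that passed the filter only through their adult libraries had to be higher.

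Gustatory receptors (Grs) were mostly below the filter, which 12 of 58 passed. Of these 12, 11 were higher and 1 lower in adult antennae. Only 1 of the 12 had a mean over 1 CPM in discs. Genes that passed the filter only through their adult libraries had to be higher, so this count does not describe the family. With at least 10 reads asked of every library, the median log2 fold change of the list was -1.49. Gr63a and Gr21a, which together form the antennal receptor for carbon dioxide, had 112, 105 and 114.9 CPM in adult antennae, against 0.108, 0.112 and 0.183 CPM in discs for Gr63a and 54.0, 50.4 and 45.6 CPM in adult antennae, against 0.036, 0.037 and 0 CPM in discs for Gr21a. Gr10a had 98.4, 103 and 87.6 CPM in adult antennae, against 0.036, 0.037 and 0.183 CPM in discs, but it shares exon positions with Or10a on the same strand. Gr64f, a sugar receptor of taste neurons, had 35.3, 40.6 and 36.8 CPM in adult antennae and no read in discs, at least 342-fold higher. Gr61a, also of the sugar receptor group, had 2.26, 1.36 and 1.71 CPM in adult antennae, against 5.75, 8.43 and 6.90 CPM in discs and was the member that fell (log2 fold change -1.72 ± 0.26, adjusted p = 0.00084).

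**Figure D2:**
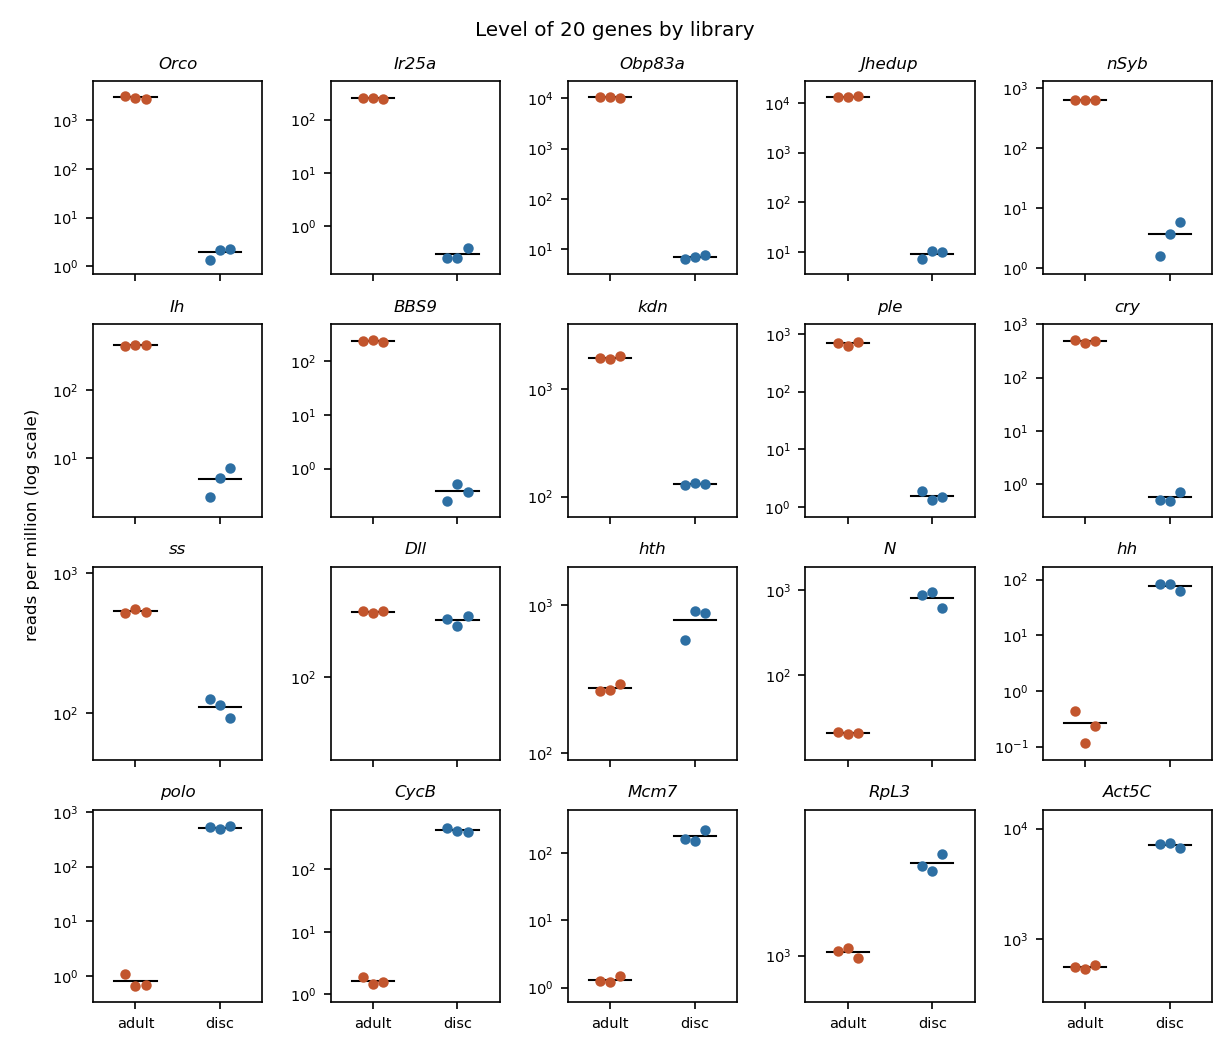
Level of 20 genes in CPM (log scale), adult antenna libraries left and larval disc libraries right in each panel, with 1 point per library and a bar at the mean of 3. Orco, at 2769 to 3104 in adult antennae and 1.37 to 2.30 in discs, and polo, at 0.661 to 1.09 in adult antennae and 481 to 552 in discs, lie at opposite ends, while Dll differs little.

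Of the 54 gene lists examined, odorant-binding proteins (Obps), secreted into the sensillum lymph by support cells, took the largest share of adult reads. They made up 5.95%, 6.16% and 6.15% of reads in the adult antennae, against 0.051%, 0.075% and 0.077% in the discs. Of 52 Obps, 35 were tested, 29 higher and 2 lower, with a median log2 fold change of 8.04 (6.95 with 5 genes without a disc read set at their bound). Of the 35, 16 had a mean over 1 CPM in discs. Members that passed the filter only through their adult libraries had to be higher. Of the Obps not tested, 12 were at or under 3 reads per library at both stages and 5 held reads. Obp19d had 18727, 19439 and 20103 CPM in adult antennae, against 13.9, 17.9 and 17.2 CPM in discs (log2 fold change 10.48 ± 0.18, adjusted p = 8.4e-08). Obp83a, a binding protein of trichoid sensilla, had 10414, 10694 and 10131 CPM in adult antennae, against 6.36, 7.17 and 7.56 CPM in discs (log2 fold change 10.80 ± 0.13, adjusted p = 5.5e-08). Obp28a, of basiconic sensilla, had 9487, 9720 and 9129 CPM in adult antennae, against 26.0, 31.6 and 28.1 CPM in discs (log2 fold change 8.63 ± 0.14, adjusted p = 7.3e-08). lush, which is needed for the response to the pheromone cis-vaccenyl acetate, had 3464, 3651 and 3869 CPM in adult antennae, against 2.31, 3.47 and 2.85 CPM in discs (log2 fold change 10.58 ± 0.20, adjusted p = 1.2e-07).

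The Obps that fell were 2, both over 4-fold. Obp99a had 0.623, 0.467 and 0.517 CPM in adult antennae, against 410, 376 and 629 CPM in discs (log2 fold change -9.50 ± 0.31, adjusted p = 6.4e-07), the largest fall of any Obp. Every adult library held under 1 CPM of it. Obp99b, named here after its values were seen, had 0.545, 0.544 and 0.915 CPM in adult antennae, against 9.11, 262 and 25.7 CPM in discs (log2 fold change -6.94 ± 1.60, adjusted p = 0.006). Disc replicate 2 carried most of this level, and the fat body markers described below were also highest in that disc. Their part in the fall of Obp99b was not tested.

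Other accessory proteins of olfaction followed. Of 13 listed genes, 12 were tested, 11 of them over 4-fold higher, at a median log2 fold change of 10.40. Jhedup, an esterase of the juvenile hormone esterase family, had 13299, 12937 and 13500 CPM in adult antennae, against 7.12, 10.4 and 10.002 CPM in discs (log2 fold change 10.76 ± 0.22, adjusted p = 1.4e-07). a10, which encodes a chemosensory protein of the antenna, had 8740, 9224 and 9445 CPM in adult antennae, against 137, 169 and 164 CPM in discs (log2 fold change 6.13 ± 0.13, adjusted p = 1.6e-07), with a disc level that was the highest of the list. Osi8, an Osiris-family transmembrane protein, had 212, 219 and 211 CPM in adult antennae, against 0, 0.187 and 0.110 CPM in discs (log2 fold change 11.29 ± 0.37, adjusted p = 6.4e-07). Of the 22 Osiris genes in the files 7 were tested, 4 higher and 2 lower, and Osi24 was the largest fall at 1.18 ± 0.118 CPM in adult antennae and 9.44 ± 2.59 CPM in discs.

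Enzymes that break down odorants and toxic compounds rose as a group with exceptions. Of 82 cytochrome P450s, 68 were tested, 56 higher (51 over 4-fold) and 8 lower, and their share of reads was 1.15% to 1.21% in adult antennae and 0.044% to 0.081% in discs. Of the 68, 38 had a mean over 1 CPM in discs. Members that passed the filter only through their adult libraries had to be higher. Cyp6w1 had 4451, 4250 and 4193 CPM in adult antennae, against 1.70, 2.91 and 2.81 CPM in discs (log2 fold change 11.03 ± 0.25, adjusted p = 2e-07). Cyp6g1, known from insecticide resistance, had 1710, 1483 and 1550 CPM in adult antennae, against 2.02, 5.82 and 2.88 CPM in discs (log2 fold change 9.05 ± 0.46, adjusted p = 3.7e-06). Of 35 glutathione S-transferases all were tested, 23 higher and 9 lower, at a median log2 fold change of 2.12. GstE4 had 7029, 6554 and 6715 CPM in adult antennae, against 3.69, 5.04 and 4.71 CPM in discs (log2 fold change 10.83 ± 0.18, adjusted p = 7.7e-08), and GstD1 had 1801, 1708 and 1907 CPM in adult antennae, against 702, 684 and 727 CPM in discs (log2 fold change 1.62 ± 0.07, adjusted p = 2.3e-06). GstE14, an enzyme of ecdysteroid synthesis, fell (log2 fold change -6.20 ± 1.49, adjusted p = 0.0071) with 0.156, 0.389 and 0.557 CPM in adult antennae, against 2.35, 16.3 and 80.4 CPM in discs, a wide spread among the discs in which replicate 5 was highest.

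**Figure D3:**
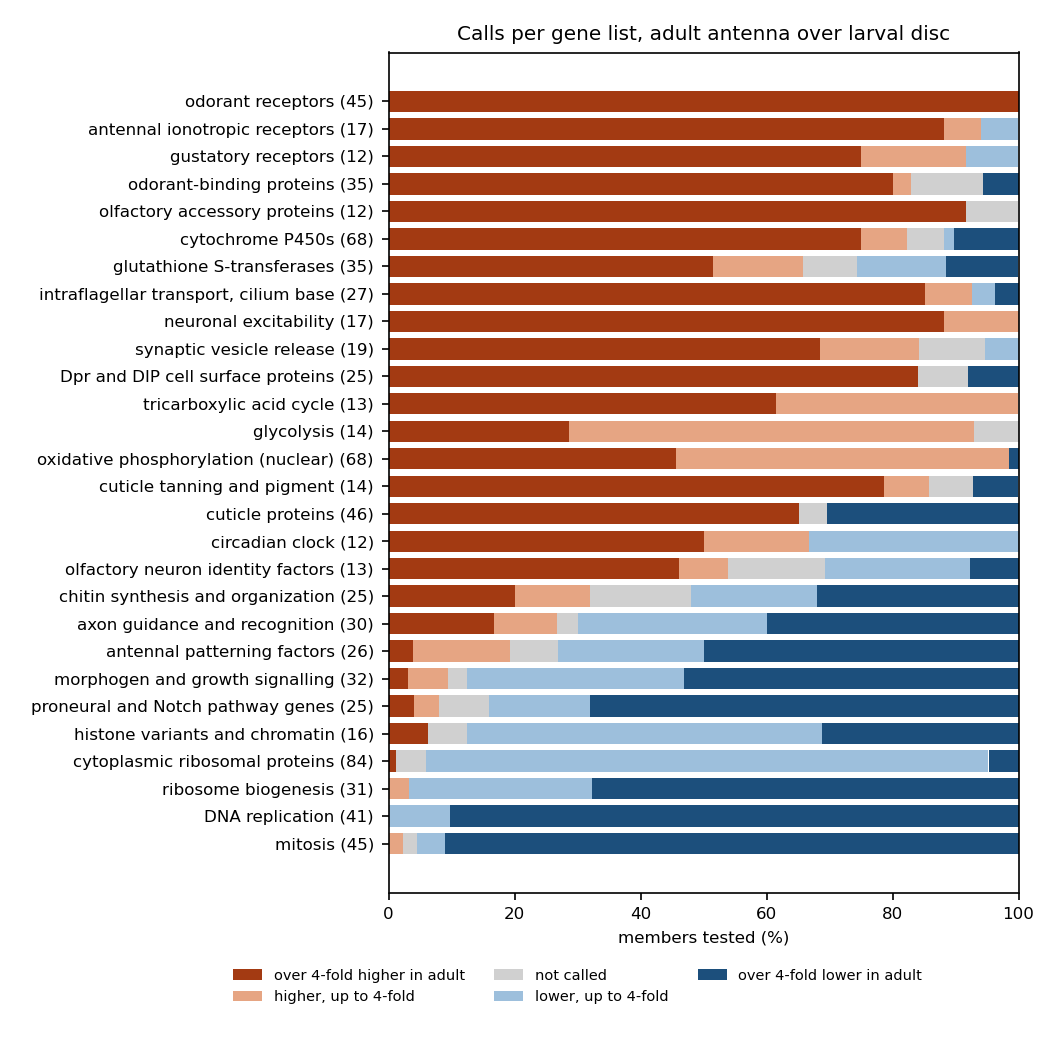
Share of the tested members of 28 gene lists (%, number tested in parentheses) that were higher in adult antennae, not called, or lower, by edgeR's test at an adjusted p of 0.05, with darker shades for changes over 4-fold. Sensory and neuronal lists are mostly higher (45 of 45 odorant receptors), and cell-cycle and patterning lists mostly lower (43 of 45 mitosis genes). Members that passed the filter only through 1 stage had to be higher at that stage. Only 3 of the 45 odorant receptors had a mean over 1 CPM in discs.

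Genes of the sensory cilium and of the neuron rose together with the receptors. Of 27 genes for intraflagellar transport, the BBSome and the cilium base, 25 were higher, 23 of them over 4-fold, and 2 were lower, at a median log2 fold change of 5.80. Of the 27, 13 had a mean over 1 CPM in discs. Members that passed the filter only through their adult libraries had to be higher. BBS9, a BBSome subunit, had 234, 240 and 222 CPM in adult antennae, against 0.253, 0.522 and 0.365 CPM in discs (log2 fold change 9.51 ± 0.19, adjusted p = 1.4e-07). The dynein-2 heavy chain gene btv, which drives retrograde transport, had 192, 186 and 167 CPM in adult antennae, against 0.578, 0.970 and 0.475 CPM in discs (log2 fold change 8.33 ± 0.23, adjusted p = 3.7e-07). Klp68D, a kinesin-II motor subunit, had 215, 201 and 225 CPM in adult antennae, against 12.2, 12.4 and 12.0 CPM in discs (log2 fold change 4.40 ± 0.07, adjusted p = 8.4e-08). unc, a protein of the ciliary basal body, ran the other way with 0.234, 0.117 and 0.239 CPM in adult antennae, against 1.99, 2.91 and 3.61 CPM in discs (log2 fold change -3.56 ± 0.40, adjusted p = 0.00017).

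Genes of the moving axoneme, which in the antenna is found in the neurons of Johnston's organ, were few and low. Of 8, 5 were tested, 3 higher and 1 lower. Dhc93AB, an axonemal dynein heavy chain, had 33.8, 39.1 and 32.2 CPM in adult antennae, against 5.31, 3.55 and 4.05 CPM in discs (log2 fold change 3.29 ± 0.18, adjusted p = 5e-06). Of 8 genes for hearing transduction, 7 were tested, 4 higher and 2 lower. nompA, which encodes the extracellular cap linking dendrite and cuticle, had 41.5, 43.8 and 36.5 CPM in adult antennae, against 0.723, 0.187 and 0.475 CPM in discs (log2 fold change 6.70 ± 0.35, adjusted p = 4.4e-06).

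All 17 genes of neuronal excitability were higher in adult antennae, 15 of them over 4-fold, at a median log2 fold change of 6.37. nrv3, a neuronal sodium pump subunit, had 1438, 1527 and 1508 CPM in adult antennae, against 3.54, 4.81 and 12.0 CPM in discs (log2 fold change 8.05 ± 0.54, adjusted p = 1.4e-05). Ih, the hyperpolarization-activated channel, had 454, 463 and 478 CPM in adult antennae, against 2.68, 5.08 and 7.01 CPM in discs (log2 fold change 6.83 ± 0.36, adjusted p = 4.8e-06). Hk, a subunit of the Shaker potassium channel, had the largest change with 149, 154 and 142 CPM in adult antennae, against 0.181, 0.336 and 0.438 CPM in discs (log2 fold change 9.11 ± 0.20, adjusted p = 1.7e-07). Disc replicate 5 was the highest disc for all 3, and it remained far below every adult library.

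Synaptic genes were more divided. Of 19, 16 were higher, 13 over 4-fold, and 1 was lower, at a median log2 fold change of 6.37. cpx (complexin), a regulator of vesicle fusion, had 1190, 1283 and 1258 CPM in adult antennae, against 1.52, 3.55 and 10.002 CPM in discs (log2 fold change 8.22 ± 0.74, adjusted p = 5.8e-05). nSyb, the neuronal synaptobrevin, had 637, 649 and 637 CPM in adult antennae, against 1.59, 3.69 and 5.84 CPM in discs (log2 fold change 7.70 ± 0.48, adjusted p = 9.6e-06). Its broadly expressed relative Syb was the member that fell, with 129, 128 and 126 CPM in adult antennae, against 229, 221 and 239 CPM in discs (log2 fold change -0.58 ± 0.05, adjusted p = 6.8e-05).

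Cell surface proteins gave different counts by family. Of 31 Dpr and DIP genes, immunoglobulin proteins that label neuron types, 25 were tested, 21 higher and 2 lower, all of these over 4-fold, at a median log2 fold change of 5.74. Only 6 of the 25 had a mean over 1 CPM in discs. Members that passed the filter only through their adult libraries had to be higher, so this count does not describe the family. dpr7 had 114, 119 and 110 CPM in adult antennae, against 0.506, 0.373 and 0.949 CPM in discs (log2 fold change 7.80 ± 0.26, adjusted p = 7.4e-07). dpr16 fell, with 5 reads in all in adult antennae. By contrast, of 30 genes of axon guidance and recognition 21 were lower and 8 higher, at a median of -1.47. Sema2a, a secreted guidance cue, had 28.5, 29.5 and 29.7 CPM in adult antennae, against 806, 823 and 589 CPM in discs (log2 fold change -4.40 ± 0.16, adjusted p = 9.7e-07). Fas3, a homophilic adhesion protein also found at septate junctions, had 118, 118 and 118 CPM in adult antennae, against 880, 896 and 905 CPM in discs (log2 fold change -2.66 ± 0.05, adjusted p = 1.4e-07).

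Glia and support cells gave mixed counts, as did all genes tested, with 43.2% higher and 43.4% lower. Of 15 glial genes tested, 8 were higher and 5 lower. Gs2, the glutamine synthetase of glia, had 5011, 4890 and 5458 CPM in adult antennae, against 80.5, 83.6 and 127 CPM in discs (log2 fold change 5.99 ± 0.23, adjusted p = 1.2e-06), while Inx2, an innexin also made in epithelia, had 134, 129 and 145 CPM in adult antennae, against 1821, 1852 and 1317 CPM in discs (log2 fold change -3.35 ± 0.16, adjusted p = 3.2e-06). Of 14 tested support cell and lineage regulators, 8 were higher and 5 lower. Sox15, a transcription factor of socket cells, had 110, 113 and 104 CPM in adult antennae, against 0.362, 0.709 and 0.365 CPM in discs (log2 fold change 8.09 ± 0.22, adjusted p = 3.4e-07), and spdo, which acts with Notch in the asymmetric division of precursors, had 0.195, 0.156 and 0.159 CPM in adult antennae, against 7.01, 7.80 and 3.07 CPM in discs (log2 fold change -4.83 ± 0.48, adjusted p = 9.8e-05).

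Genes that set up the antenna in the disc mostly fell. Of 25 tested genes of the proneural and Notch pathways, 21 were lower, 17 of them over 4-fold, and 2 were higher, at a median log2 fold change of -5.01. The receptor gene N (Notch) had 21.3, 20.4 and 21.0 CPM in adult antennae, against 875, 936 and 621 CPM in discs (log2 fold change -5.01 ± 0.19, adjusted p = 1.1e-06). emc, an inhibitor of proneural proteins, had 171, 177 and 197 CPM in adult antennae, against 754, 734 and 608 CPM in discs (log2 fold change -1.68 ± 0.11, adjusted p = 1.4e-05). phyl, which promotes sensory organ fates, was the largest rise with 52.8, 49.5 and 52.8 CPM in adult antennae, against 8.03, 8.62 and 6.35 CPM in discs (log2 fold change 3.02 ± 0.13, adjusted p = 2.1e-06). amos itself, named here after its values were seen, was below the filter, with 4 reads in all in adult antennae and 2 in discs.

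Of 26 transcription factors of antennal patterning, 19 were lower (13 over 4-fold) and 5 higher (1 over 4-fold), at a median log2 fold change of -2.05. sob, an odd-skipped family gene of leg and antennal joints, came to 7 reads in all in adult antennae and had 92.6 to 105 CPM in discs (log2 fold change -9.76 ± 0.15, adjusted p = 6.8e-08). ci, the effector of Hedgehog signalling, had 44.3, 44.3 and 42.1 CPM in adult antennae, against 797, 791 and 694 CPM in discs (log2 fold change -3.86 ± 0.09, adjusted p = 1.8e-07). The proximal and antennal selector hth had 263, 267 and 293 CPM in adult antennae, against 584, 905 and 890 CPM in discs (log2 fold change -1.26 ± 0.18, adjusted p = 0.00053), and its partner exd had 166, 165 and 182 CPM in adult antennae, against 523, 500 and 436 CPM in discs (log2 fold change -1.24 ± 0.09, adjusted p = 2.5e-05). Lim1 and dac, transcription factors of antennal segments, had means of 3.32 ± 0.295 CPM in adult antennae and 67.9 ± 8.56 CPM in discs for Lim1 and 33.8 ± 2.72 CPM in adult antennae and 84.4 ± 19.2 CPM in discs for dac, and ct averaged 52.6 ± 3.15 CPM in adult antennae and 128 ± 20.2 CPM in discs. Every adult library was below every disc library in these genes, while 90.5% of all genes tested did not overlap either. ss was the 1 member over 4-fold higher.

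Signalling genes followed the same direction, with 28 of 32 morphogen and growth genes lower, 17 over 4-fold, and 3 higher, at a median of -2.22. dpp, the BMP ligand, had 10.2, 11.2 and 9.98 CPM in adult antennae, against 70.8, 73.6 and 68.4 CPM in discs (log2 fold change -2.50 ± 0.08, adjusted p = 5.3e-07). ft (fat), an atypical cadherin of the Hippo pathway, had 6.03, 4.90 and 4.21 CPM in adult antennae, against 669, 685 and 512 CPM in discs (log2 fold change -6.68 ± 0.21, adjusted p = 5.6e-07), and ex (expanded), a component of the same pathway, had 24.3, 26.5 and 27.5 CPM in adult antennae, against 641, 640 and 690 CPM in discs (log2 fold change -4.39 ± 0.08, adjusted p = 1.1e-07). Wnt10, a Wnt ligand, rose with 5.26, 5.02 and 4.57 CPM in adult antennae, against 0.434, 0.672 and 0.548 CPM in discs (log2 fold change 3.42 ± 0.24, adjusted p = 1.6e-05).

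Of 13 transcription factors tied to olfactory neuron identity, 7 were higher and 4 lower, beside 43.2% higher and 43.4% lower of all genes tested. These counts alone do not set the list apart. Fer1 had 172, 169 and 162 CPM in adult antennae, against 0.289, 0.149 and 0.365 CPM in discs (log2 fold change 9.53 ± 0.19, adjusted p = 1.4e-07), the largest rise, while mirr had 0.234, 0.311 and 0.159 CPM in adult antennae, against 41.1, 49.0 and 37.6 CPM in discs (log2 fold change -7.21 ± 0.23, adjusted p = 5.7e-07), the largest fall. jim fell with 79.6, 86.7 and 80.6 CPM in adult antennae, against 260, 340 and 442 CPM in discs (log2 fold change -1.81 ± 0.19, adjusted p = 0.00012). Their summed share of reads was 0.106% to 0.109% in adult antennae and 0.106% to 0.130% in discs, and the stages overlapped.

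Cell division genes fell together. All 41 tested genes of DNA replication were lower in adult antennae, 37 over 4-fold, at a median log2 fold change of -3.35. Mcm7, a subunit of the replicative helicase, had 1.25, 1.21 and 1.51 CPM in adult antennae, against 164, 151 and 223 CPM in discs (log2 fold change -6.81 ± 0.21, adjusted p = 5.4e-07). RPA1, a single-strand binding protein, had 43.8, 41.4 and 43.0 CPM in adult antennae, against 251, 226 and 292 CPM in discs (log2 fold change -2.32 ± 0.10, adjusted p = 2.2e-06), and E2f1, the S-phase transcription factor, had 65.8, 67.0 and 72.4 CPM in adult antennae, against 210, 237 and 296 CPM in discs (log2 fold change -1.59 ± 0.13, adjusted p = 4.1e-05). All the adult libraries lay below all the discs in these 3 genes, and 0 of the 41 genes overlapped, while 90.5% of all genes tested did not overlap either.

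Of 45 genes of mitosis, 43 were lower, 41 of them over 4-fold, at a median of -5.49. polo, a mitotic kinase, had 1.09, 0.661 and 0.676 CPM in adult antennae, against 523, 481 and 552 CPM in discs (log2 fold change -9.05 ± 0.20, adjusted p = 1.7e-07). CycB, a mitotic cyclin, had 1.87, 1.48 and 1.59 CPM in adult antennae, against 456, 418 and 402 CPM in discs (log2 fold change -7.74 ± 0.12, adjusted p = 7.4e-08), and fzy, the activator of the anaphase-promoting complex in mitosis, had 0.156, 0.078 and 0.358 CPM in adult antennae, against 184, 168 and 187 CPM in discs (log2 fold change -9.54 ± 0.28, adjusted p = 4.8e-07). fzr, the activator of the same complex outside mitosis, was the single gene called higher, but its libraries overlapped, with 39.6, 40.4 and 44.5 CPM in adult antennae, against 36.7, 38.0 and 43.9 CPM in discs (log2 fold change 0.34 ± 0.09, adjusted p = 0.012), and the call was lost with scaling by total counts or with the length trend removed. Summed over the list, mitosis genes took 0.039% to 0.041% of reads in adult antennae and 0.648% to 0.754% in discs, while replication genes took 0.041% to 0.043% in adult antennae and 0.385% to 0.516% in discs.

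Growth machinery fell less steeply. Of 31 genes of ribosome biogenesis 30 were lower, 21 over 4-fold, at a median of -2.58. Nlp, a nucleoplasmin-like histone chaperone, had 32.7, 33.6 and 33.7 CPM in adult antennae, against 788, 745 and 693 CPM in discs (log2 fold change -4.21 ± 0.08, adjusted p = 1.2e-07). Of 84 tested cytoplasmic ribosomal proteins 79 were lower, but only 4 of these over 4-fold, at a median of -1.43. RpL3 had 1074, 1121 and 966 CPM in adult antennae, against 3999, 3743 and 4840 CPM in discs (log2 fold change -1.73 ± 0.12, adjusted p = 1.6e-05). The ribosomal protein genes together took 4.17%, 4.49% and 3.95% of reads in adult antennae, against 13.5%, 12.6% and 15.6% in discs. The only ribosomal entry higher was RpS28-like, at 2.41 to 3.54 CPM in adult antennae and 2 reads in all in discs, and it shares exon positions with another gene on its strand.

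Chromatin genes fell with them, and cytoskeleton genes were divided. HmgD, a high mobility group protein, had 36.4, 37.1 and 37.3 CPM in adult antennae, against 2105, 1877 and 2418 CPM in discs (log2 fold change -5.58 ± 0.12, adjusted p = 1.6e-07). Df31, a chromatin decondensation factor, had 175, 182 and 181 CPM in adult antennae, against 4378, 4183 and 4926 CPM in discs (log2 fold change -4.38 ± 0.09, adjusted p = 1.6e-07). Of 16 tested genes of histone variants and chromatin, 14 were lower and 1 higher. Act5C, a cytoplasmic actin, had 561, 535 and 587 CPM in adult antennae, against 7298, 7422 and 6631 CPM in discs (log2 fold change -3.40 ± 0.09, adjusted p = 3.7e-07), and Act42A, the other, had 35.9, 34.4 and 34.6 CPM in adult antennae, against 1734, 1653 and 1478 CPM in discs (log2 fold change -5.27 ± 0.10, adjusted p = 1.1e-07). Of the 7 tested tubulin and cytoplasmic actin genes 4 were lower and 1 higher (2 without disc replicate 5), and their median log2 fold change was -0.76, but 0.086 with DESeq2 and 0.00075 with no filter on low counts. Together the 8 genes of the list took 0.161% to 0.174% of reads in adult antennae and 1.29% to 1.46% in discs.

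Energy metabolism moved the other way. Of 84 nuclear genes of oxidative phosphorylation 68 were tested, 67 higher and 1 lower, at a median log2 fold change of 1.97, with 31 over 4-fold. COX4, a subunit of cytochrome c oxidase, had 922, 965 and 811 CPM in adult antennae, against 162, 157 and 199 CPM in discs (log2 fold change 2.65 ± 0.12, adjusted p = 2.4e-06), and ATPsynbeta, of the ATP synthase, had 2602, 2404 and 2451 CPM in adult antennae, against 1578, 1511 and 1675 CPM in discs (log2 fold change 0.91 ± 0.07, adjusted p = 3.2e-05). All 13 genes of the tricarboxylic acid cycle were higher, at a median of 2.29, led by the citrate synthase kdn with 1965, 1898 and 2021 CPM in adult antennae, against 129, 134 and 132 CPM in discs (log2 fold change 4.16 ± 0.07, adjusted p = 8.3e-08). Of 14 glycolysis genes 13 were higher, at a median of 1.46, and Eno (enolase) had 1382, 1351 and 1322 CPM in adult antennae, against 634, 630 and 645 CPM in discs (log2 fold change 1.35 ± 0.06, adjusted p = 1.8e-06). ATPsynepsilonL, a variant subunit, was the oxidative phosphorylation gene that fell, with 0.545, 0.350 and 0.318 CPM in adult antennae, against 1.63, 2.202 and 2.23 CPM in discs.

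Cuticle genes changed in both directions. Of 126 cuticle protein genes in the files, 46 were tested, 30 higher and 14 lower, all of these over 4-fold, at a median log2 fold change of 4.59 (3.76 with genes of an all-zero stage at their bound). The median was -1.16 when at least 10 reads were asked of every library, so its sign rests on genes with few or no reads in some libraries. Cpr49Ae had 522, 528 and 614 CPM in adult antennae, against 0.506, 0.448 and 0.475 CPM in discs (log2 fold change 10.44 ± 0.13, adjusted p = 5.6e-08). Cpr62Bc had 159, 143 and 77.2 CPM in adult antennae, against 0.108, 0.149 and 0.183 CPM in discs (log2 fold change 9.97 ± 0.45, adjusted p = 2.4e-06), with adult replicate 7 the lowest. Cpr49Ac fell, with 3 reads in all in adult antennae and 32.6, 81.0 and 4.09 CPM in discs. Of 14 tested genes of tanning and pigment 12 were higher and 1 was lower, at a median of 4.13. ple, the tyrosine hydroxylase that starts the pathway, had 692, 617 and 736 CPM in adult antennae, against 1.88, 1.34 and 1.50 CPM in discs (log2 fold change 9.02 ± 0.17, adjusted p = 1.2e-07), and yellow-h had 568, 594 and 646 CPM in adult antennae, against 1.37, 1.01 and 1.39 CPM in discs (log2 fold change 9.17 ± 0.15, adjusted p = 8.3e-08).

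Chitin and zona pellucida genes changed in both directions. Of 25 tested genes of chitin synthesis and organization 13 were lower and 8 higher, near the 43.4% lower and 43.2% higher of all genes tested, and those higher numbered 5 without adult replicate 6 or 7. Of 10 tested zona pellucida genes, which shape the apical matrix, 6 were lower and 2 higher (1 without adult replicate 5 or 7 or disc replicate 1 or 2). Cht10, a chitinase, had 12.6, 13.7 and 13.9 CPM in adult antennae, against 1944, 2176 and 835 CPM in discs (log2 fold change -6.68 ± 0.44, adjusted p = 1.3e-05). neo, a zona pellucida protein, had 2.26, 1.79 and 1.43 CPM in adult antennae, against 196, 203 and 81.9 CPM in discs (log2 fold change -6.19 ± 0.46, adjusted p = 2.4e-05). Disc replicate 5 was the lowest disc in both genes. obst-E, a chitin-binding protein, rose with 111, 112 and 102 CPM in adult antennae, against 2.82, 2.65 and 5.15 CPM in discs (log2 fold change 5.20 ± 0.27, adjusted p = 4.1e-06).

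Hormone and stress genes were where the discs differed among themselves. The ecdysone-responsive genes took 0.166%, 0.169% and 0.176% of reads in adult antennae, against 0.586%, 0.715% and 0.227% in disc replicates 1, 2 and 5. ImpE2, an ecdysone-inducible gene of disc eversion, had 1.87, 2.06 and 1.91 CPM in adult antennae, against 2700, 3575 and 142 CPM in discs (log2 fold change -9.84 ± 1.43, adjusted p = 0.00065), so that disc replicate 5 lay far below the other discs. Of 23 tested members 10 were lower and 6 higher, beside 43.4% lower and 43.2% higher of all genes tested. Without disc replicate 5 these were 14 lower and 7 higher. Hr38, a nuclear receptor, had the largest rise, with 16.8, 17.2 and 17.7 CPM in adult antennae, against 0.036, 0 and 0.219 CPM in discs (log2 fold change 7.84 ± 0.60, adjusted p = 2.6e-05).

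Heat shock genes showed the same split among discs, with 0.254% to 0.267% of reads in adult antennae, against 1.199%, 1.29% and 0.680% in disc replicates 1, 2 and 5. Hsp83, a chaperone, had 657, 618 and 611 CPM in adult antennae, against 5775, 5993 and 3731 CPM in discs (log2 fold change -2.77 ± 0.20, adjusted p = 2.1e-05). Hsp27 and Hsp23, small heat shock proteins that also respond to ecdysone, had 5.53, 5.21 and 6.28 CPM in adult antennae, against 1660, 1949 and 613 CPM in discs for Hsp27 and 4.13, 3.73 and 3.14 CPM in adult antennae, against 1614, 1736 and 508 CPM in discs for Hsp23. Every adult library was below every disc in these 3 genes, while 90.5% of all genes tested did not overlap either. Of 12 tested members 7 were lower and 3 higher, beside 43.4% lower and 43.2% higher of all genes tested. Their median log2 fold change was -1.44, but 0.29 with DESeq2 and 0.21 with no filter on low counts. The exact stage of each disc collection within the third instar is not given in the labels. Its part in the differences between discs was not tested.

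**Figure D4:**
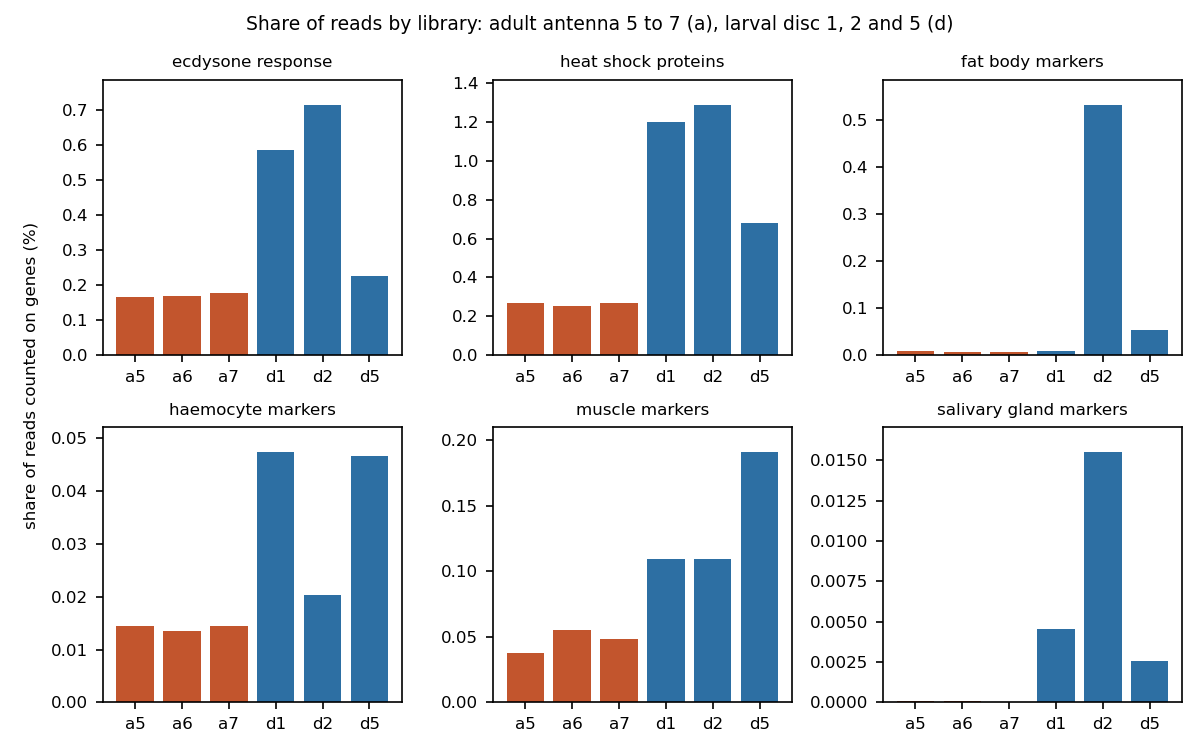
Share of reads counted on genes (%) on 6 gene lists in each library, adult antenna replicates 5 to 7 (a5 to a7) left and larval disc replicates 1, 2 and 5 (d1, d2, d5) right. Disc replicate 2 stands out for fat body markers at 0.532%, and disc replicate 5 is the lowest disc for ecdysone-responsive genes at 0.227% and heat shock genes at 0.680%.

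Markers of neighbouring tissues were read beside these results. Their counts stand beside 43.4% lower and 43.2% higher of all genes tested. Fat body markers took 0.0069% to 0.0078% of reads in adult antennae, against 0.0088%, 0.532% and 0.054% in disc replicates 1, 2 and 5. Larval serum protein genes made up this signal, for example Lsp1gamma with 2.02, 1.98 and 1.19 CPM in adult antennae, against 11.9, 1310 and 177 CPM in discs (log2 fold change -7.90 ± 1.86, adjusted p = 0.0065). Without disc replicate 2 the 10 tested fat body markers still gave 6 lower and 3 higher, but their median log2 fold change was -4.17 and not -7.63, and the difference in their share of reads, adult minus disc, was -0.024 and not -0.191 percentage points. Salivary gland genes were lower in 7 of 7, led by Eig71Ee with no read in adult antennae and 7.70, 28.9 and 5.66 CPM in discs, again highest in disc replicate 2. Haemocyte markers took 0.014% of reads in adult antennae and 0.020% to 0.047% in discs, with 6 of 8 lower. Their part in other results was not tested.

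Muscle markers took 0.038% to 0.055% of reads in adult antennae and 0.109% to 0.191% in discs, with 4 of 11 tested lower and 2 higher. This count and those of the other markers below stand beside 43.4% lower and 43.2% higher of all genes tested. Act79B, an actin of adult muscle, varied widely among adult libraries, with 4.17, 44.9 and 23.4 CPM in adult antennae, against 0.108, 0.037 and 0 CPM in discs. Of 11 tested eye markers 6 were lower and 3 higher, at a median log2 fold change of -2.89. Without disc replicate 1 those higher numbered 5 and the median was 0.060, and without disc replicate 5 those higher numbered 6. toy, a selector of the eye-antennal disc and head, had 0.156, 0.078 and 0.239 CPM in adult antennae, against 182, 205.1 and 196 CPM in discs (log2 fold change -9.97 ± 0.21, adjusted p = 1.5e-07). Of 7 taste bristle markers 6 were tested, 4 higher and 2 lower. None of 7 testis markers passed the filter, and 1 of 7 neuropeptide markers of the brain did. The male-specific RNA roX1 was not called, with 512, 631 and 667 CPM in adult antennae, against 471, 393 and 924 CPM in discs (log2 fold change 0.29 ± 0.32, adjusted p = 0.43), and disc replicate 5 was the highest library. Without disc replicate 5 it was called higher in adult antennae (log2 fold change 0.79, adjusted p = 0.0011). The yolk protein gene Yp2, made in adult females, had 10.4, 7.85 and 8.27 CPM in adult antennae, against 0.108, 0.149 and 0.073 CPM in discs (log2 fold change 6.53 ± 0.30, adjusted p = 2.4e-06).

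Genes were also ranked by fitted fold change. For a gene without reads at a stage that value depends on the prior count, so the rank is not one of measured size. Among the first 10 genes ranked as higher, with at least 50 reads on average in the higher stage, all 10 had no read in any disc, and 4 were Or genes (Or22a, Or67d, Or85a and Or98a). Ugt35E2, a UDP-glycosyltransferase, had 57.0, 59.6 and 55.4 CPM in adult antennae, at least 521-fold higher. Or67d, the receptor for cis-vaccenyl acetate, had 38.3, 40.9 and 47.3 CPM, at least 383-fold higher, and Obp57a had 32.9, 38.6 and 34.4 CPM, at least 321-fold higher. The others were CG31272, CG1791, Gr64f and Fa2h, a fatty acid hydroxylase, each at least 294-fold higher.

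In the same ranking of genes lower in adults, Doc2, a T-box transcription factor, had no read in adult antennae and 23.7, 19.9 and 22.8 CPM in discs, at least 188-fold lower in adults. Sox21b, a Sox transcription factor, had 20.8, 21.7 and 21.4 CPM in discs and no adult read, at least 181-fold lower. nab, a transcriptional cofactor, and gl, the photoreceptor regulator glass, had no adult read, but differed among discs, with 7.63, 7.24 and 26.8 CPM for nab and 3.18, 18.4 and 4.23 CPM for gl. lncRNA:CR33938 had 0.428, 0.194 and 0.437 CPM in adult antennae, against 616, 662 and 872 CPM in discs (log2 fold change -10.70 ± 0.29, adjusted p = 3.5e-07). The rest of the first 10 were Eig71Ee, CG11370, CG32318, ato and 1 identifier without a symbol in the annotation used here.

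The genes that took most reads differed almost fully between stages. In adult antennae they were Obp19d, CG6409, Jhedup, Obp83a, Os-C, Obp28a, Antdh, a10, OS9 and Jhbp3, all of them called over 4-fold higher than in discs. Os-C, an antennal secreted protein, had 10144, 10038 and 10986 CPM in adult antennae, against 67.5, 87.4 and 81.8 CPM in discs (log2 fold change 7.31 ± 0.16, adjusted p = 1.6e-07). Antdh, an antennal dehydrogenase, had 9519, 9221 and 8836 CPM in adult antennae, against 5.50, 6.46 and 6.46 CPM in discs (log2 fold change 10.81 ± 0.14, adjusted p = 5.5e-08). CG6409 had 14155, 13724 and 15017 CPM in adult antennae, against 8.46, 9.67 and 10.951 CPM in discs (log2 fold change 10.79 ± 0.17, adjusted p = 7.3e-08). In discs the leading genes were all called lower in adult antennae, and 6 of them had a symbol: eEF2, Act5C, Hsp83, alphaTub84B, Df31 and RpL3. eEF2, the translation elongation factor, had 2985, 3015 and 2779 CPM in adult antennae, against 7658, 7149 and 7234 CPM in discs (log2 fold change -1.06 ± 0.08, adjusted p = 2.3e-05). Of those without a symbol, FBgn0262720 had 6.62, 6.10 and 5.29 CPM in adult antennae, against 5931, 5357 and 7393 CPM in discs (log2 fold change -9.75 ± 0.21, adjusted p = 1.6e-07).

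The disc levels of abundant adult genes had a common lower limit. Of 118 genes with a mean over 1000 CPM in adult antennae, 26 had a mean disc level under 0.1% of the adult level, and all 26 lay between 0.055% and 0.084% of it, with Obp69a the lowest. Orco, Obp19d, Obp83a, lush, Jhedup, GstE4, Cyp6w1, Antdh and CG6409 were among the 26. Their fold changes above are therefore taken against a disc level within this band. Genes with a lower adult level, such as Ir75a, Or42b and Osi8, were not part of this count. Whether their fold changes meet the same limit was not tested. In the single discs, the median of these 26 was 0.059%, 0.073% and 0.071% of the adult level in replicates 1, 2 and 5. The same 26 genes had medians of 0.020% to 0.026% of the control adult level in the 3 amos disc libraries. In the other direction, of 322 genes over 500 CPM in discs, 3 had an adult level under 0.1% of the disc level. The cause of this common level was not tested.

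**Figure D5:**
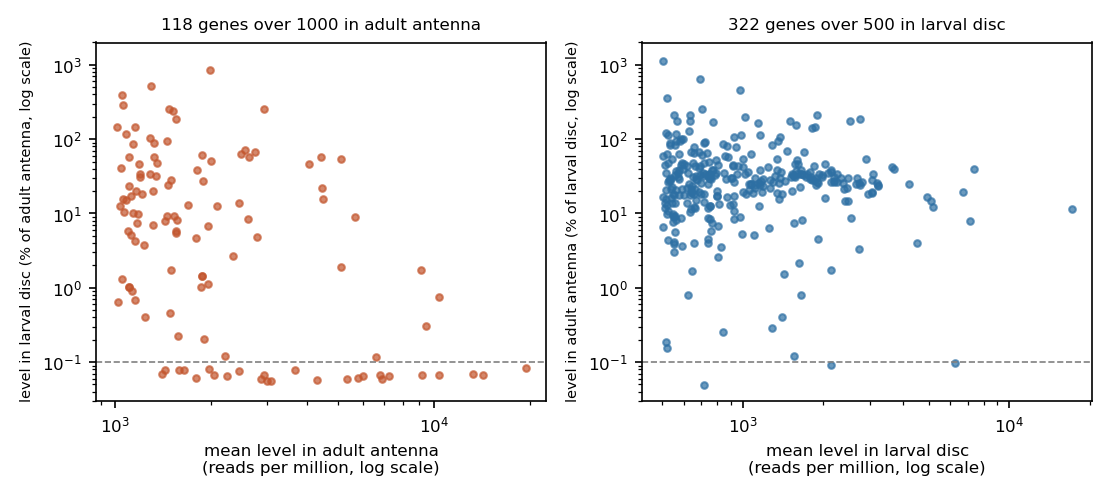
Level at the other stage, as % of the level at the stage of high expression (log scale), against the mean level in CPM (log scale), for 118 genes over 1000 CPM in adult antennae (left) and 322 genes over 500 CPM in larval discs (right), with 1 point per gene and a dashed line at 0.1%. On the left 26 genes line up under the dashed line at 0.055% to 0.084% of the adult level, and on the right 3 genes lie under it.

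To place the change against the mutant, the stage effect was compared between amos animals and controls in a model over all 12 samples. It differed in 2302 of 10319 genes tested (22.3%), with a more positive log2 fold change, adult over disc, in amos for 1470 (14.2%) and in controls for 832 (8.06%). For Orco the log2 fold change was 11.65 in amos and 10.82 in controls when each genotype was fitted alone. In the model over all 12 samples the difference was 0.77 and was not called (adjusted p = 0.46). Its levels were 95.5, 115 and 57.5 CPM in amos adults and 0.026, 0.046 and 0.023 CPM in amos discs, all below the controls of the same stage. Orco was among the 26 genes described above, whose control disc level was under 0.1% of the adult level. The part of that common level in the comparison of its stage effects was not tested. Of 48 Or genes tested 7 had a smaller stage effect in amos. Of 41 DNA replication genes 28 had a more positive stage effect in amos. The amos libraries were deeper, with 36396746 to 50252338 reads on genes, and held fewer reads of mitochondrial genes, at 0.127% to 0.179% in amos adults against 1.16% to 1.45% in control adults, and 0.058% to 0.079% in amos discs against 0.560% to 1.03% in control discs. Their part in these differences was not tested.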

How the data were processed

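Libraries were made from mRNA with a stranded kit. The deposited files hold raw counts: per the labels and the study's methods, the authors trimmed reads, aligned them with TopHat2 and counted them per gene with HTSeq, with no normalization. The submitters' processing notes name cutadapt 1.2.1, TopHat2 2.0.9, HTSeq 0.5.4p3 and the build BDGP5, while the study's methods name a different trimmer, other versions and a release 6 annotation. These could not be reconciled, so no coordinates are given. The strand setting and overlap mode of the counting are not given in the sources used here, so reads of overlapping or antisense genes cannot be told apart. Of the genes named, 37 of 148 share exon positions with another gene in the annotation used here (Ensembl, BDGP6), 7 of them on the same strand. Symbols were found for 15002 of 15682 identifiers and 680 have none. The 5 lines of each file that name no gene were left out of library sizes.

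Counts were tested with edgeR 4.0.16 in R 4.3.3 (TMM scaling, filterByExpr, quasi-likelihood test with Benjamini-Hochberg adjustment), on the 6 control samples with no covariate. The standard error is the absolute log2 fold change divided by the square root of F. The 3-read floor is 0.117 to 0.119 CPM in adult libraries and 0.108 to 0.112 CPM in disc libraries. Alternatives were DESeq2 1.42.0, other scalings and filters, a length correction, a fit over 12 samples and leaving out each library. Gene lists number 54, and 52 of their entries found no symbol match. The gene lists and the comparison were chosen with earlier results of these data known. Genes named are, per list, the 3 highest by mean CPM, the largest change and the largest change against the list's direction, beside the first 10 genes each way by fitted fold change, the 10 highest genes per stage and all defining markers. The study's methods call the samples biological replicates, but do not say whether cultures were separate, so p-values measure the spread between these samples, which may be partly technical. Lines that name no gene include reads outside genes (4.76% to 5.22% of all entries in adult files, 2.49% to 2.82% in disc files). Read shares of a list were set side by side without a call, because 3 against 3 libraries cannot give an exact permutation p below 0.1. Data were simulated for this comparison on 8814 genes, of which 8616 were left unchanged. The test called 4 of 50 genes with an absolute log2 fold change of 0.5 and 31 of 50 changed 2-fold. It called 40 of 49 changed 4-fold, 49 of 49 changed 16-fold and 7 of 8616 unchanged genes. How it performs where most genes change, as with the 86.6% called in the control samples, was not tested.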

Additional observations from a re-analysis of the deposited data

Results flagged for a closer look

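The change from disc to adult differed between amos mutants and controls in 2302 of 10319 genes, by an interaction test in edgeR over all 12 samples (22.3%, adjusted p under 0.05), which is why it is listed for a closer look. At an unadjusted p under 0.05 the count was 3737. Of the 2302 genes, 1470 had a more positive stage effect in amos and 832 a less positive one, and 247 genes with a less positive effect were over 4-fold higher in adult antennae than in discs of controls. Of 71 cytochrome P450s tested, 24 had a more positive stage effect in amos and 3 a less positive one. Of 84 ribosomal proteins, 1 had a more positive effect and 15 a less positive one, beside 14.2% and 8.06% of all genes tested. No sample group had 4 or more libraries, so single libraries were not tested for standing apart.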

How the results depend on the processing

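Counts of genes higher and lower in adult antennae stayed within 1.5 times under every alternative run. Genes called over 4-fold fell to 1342 higher and 853 lower when at least 10 reads were asked of every library, since genes with few reads at a stage then leave the test (7770 genes tested). Leaving out 1 library gave 2543 to 2756 genes over 4-fold higher and 1435 to 1471 lower, and 4077 to 4576 higher and 4057 to 4353 lower at any size. DESeq2 gave 4710 higher and 4161 lower. Scaling by total counts moved the median of all genes by -0.27, removing the length trend by -0.42, and DESeq2 by 0.10 on the log2 scale, with the 4-fold calls at 2364 higher and 1757 lower for total counts and 2326 and 1966 for the length trend. Of 1857 values of named genes under alternatives, 1843 kept their direction and side of the threshold, 13 lost and 1 gained a call and 0 changed sign. Of 1404 list counts 123 moved over 1.5 times, and 16 of 685 list medians changed sign, among them gustatory receptors (-1.49) and cuticle proteins (-1.16) with the 10-read filter and heat shock proteins (0.29) with DESeq2. Leaving out 1 library also moved small list counts: 2 larval Ors were higher without adult replicate 7 or any 1 disc (1 with all libraries), 1 hearing gene was lower without adult replicate 5 or 6 or disc replicate 1 or 2 (2 with all), and the 1 lower axonemal gene lost its call without disc replicate 2 or 5.

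No paired analysis was possible because adult and disc controls share a single replicate number. For the stage effect between genotypes, the replicate block gave 1045 genes against 2302. Correlations of same-numbered libraries were 0.11, 0.020 and 0.029 in amos and -0.11 in controls. So few values cannot decide whether the numbers pair samples. Without 1 library that count ran between 1663 and 2409.

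Depth limits low genes: at 0.11 CPM per 3 reads, 10 Ors, 32 Irs and 34 Grs at or under the floor at both stages were not detectable, which does not show that they are absent, and a further 5 Ors, 8 Irs and 12 Grs held reads but were not tested.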

Other observations

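Clock genes were not part of the account above. All 12 were tested, 8 higher in adult antennae (6 over 4-fold) and 4 lower, at a median log2 fold change of 2.99. Of all genes tested, 43.2% were higher and 43.4% lower. cry, the blue-light photoreceptor that resets the clock, had 505, 452 and 479 CPM in adult antennae, against 0.506, 0.485 and 0.730 CPM in discs (log2 fold change 9.96 ± 0.16, adjusted p = 7.3e-08). Pdp1, a transcriptional activator of the clock loop, had 438, 451 and 465 CPM in adult antennae, against 14.2, 20.0 and 57.3 CPM in discs (log2 fold change 4.16 ± 0.56, adjusted p = 0.00044), with disc replicate 5 the highest disc. vri, the repressor that acts on the same promoter elements, had 30.7, 29.5 and 31.5 CPM in adult antennae, against 90.9, 77.5 and 92.5 CPM in discs (log2 fold change -1.24 ± 0.08, adjusted p = 1.5e-05). Adult and disc libraries did not overlap in these 3 genes, nor did they in 90.5% of all genes tested. The time of day of collection is not given in the sources used here.

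Of 21 antimicrobial peptide and immune receptor genes 7 were tested, 5 higher and 1 lower, beside 43.2% higher and 43.4% lower of all genes tested. PGRP-LC, a receptor of bacterial peptidoglycan, had 103, 106 and 107 CPM in adult antennae, against 5.46, 6.94 and 3.76 CPM in discs (log2 fold change 4.56 ± 0.23, adjusted p = 3.6e-06), and PGRP-LB, a peptidoglycan amidase, had 57.7, 53.8 and 48.7 CPM in adult antennae, against 0.362, 0.485 and 0.511 CPM in discs (log2 fold change 7.13 ± 0.15, adjusted p = 1.4e-07). The NF-kappaB factor Rel had 166, 169 and 168 CPM in adult antennae, against 74.8, 73.2 and 81.7 CPM in discs (log2 fold change 1.40 ± 0.06, adjusted p = 1.9e-06). Every adult library was above every disc in these 3 genes, while 90.5% of all genes tested did not overlap either. The receptor gene Tl was lower, with 37.025, 38.9 and 40.1 CPM in adult antennae, against 111, 123 and 49.4 CPM in discs (log2 fold change -1.02 ± 0.33, adjusted p = 0.025). That call was lost without any 1 of adult replicates 5, 6 and 7 and disc replicates 1 and 2, and with at least 10 reads asked of every library (adjusted p between 0.057 and 0.078).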
